A study of Homo sapiens with 8 samples.

Results

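The extracellular matrix that cells lay down beside collagen, the proteases that cut it and the enzymes that crosslink it were followed as a set of 54 named genes in a human cell line and 3 knockout derivatives. The members were picked by gene symbol from 60617 gene identifiers in a table of read counts, all 54 were found, and 51 had enough counts to be tested. The cells were HEK293T, an adherent line of human embryonic kidney origin that carries the SV40 large T antigen, grown in DMEM with fetal bovine serum. The groups were sgKDM5C, sgKDM6A and sgKMT2B, each a HEK293T derivative in which a guide RNA directed the knockout of the gene in its name, and WT, the unedited parent. KDM5C removes methyl groups from lysine 4 of histone H3, KDM6A removes them from lysine 27, and KMT2B adds them to lysine 4. Each group had 2 libraries of poly(A) RNA. The sources used here do not say whether a knockout line was 1 clone or a pool of cells, nor whether the 2 libraries of a group came from separate cultures, so p-values measure the spread between these libraries, which may be technical. Every group is the same cell line, so each gene is followed within HEK293T cells only.

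Basement membranes are sheets built on laminin heterotrimers, each of an alpha, a beta and a gamma chain, which nidogens and the heparan sulfate proteoglycans perlecan and agrin bind together. Fibronectin and the fibrillin microfibrils, with fibulins and latent TGF-beta-binding proteins on them, form the interstitial and elastic networks, and matricellular proteins such as SPARC and the thrombospondins modify how cells attach to them. Matrix metalloproteinases (MMP) and ADAMTS proteases cut these proteins, tissue inhibitors of metalloproteinases (TIMP) block the cutting, and lysyl oxidases and lysyl hydroxylases crosslink collagen and elastin.

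The smallest library, WT replicate 2, held 15868353 counts and the largest, sgKDM6A replicate 2, held 27591724, which made 3 counts worth 0.107 to 0.195 CPM (counts relative to library size after TMM scaling), the scale of all levels that follow unless a length is named. The targeted genes were lower in their own knockouts at the RNA level, by a log2 change of -0.50 for KDM5C in sgKDM5C, -2.39 for KDM6A in sgKDM6A and -1.03 for KMT2B in sgKMT2B. The 4 markers fixed for the parent line (PAX2, LHX1, KRT8 and KRT18) summed to 155 and 155 CPM in sgKDM5C, 82.3 and 76.2 CPM in sgKDM6A, 318 and 343 CPM in sgKMT2B and 177 and 173 CPM in WT, with LHX1 near 0 throughout. Of 7 fibroblast markers, FAP was at 0 in every library, and the sum was 23.7 to 34.9 CPM over the sgKDM5C and sgKDM6A libraries, 80.0 and 92.1 CPM in sgKMT2B and 55.6 and 57.9 CPM in WT, most of it COL1A1 and, in sgKMT2B, COL3A1. The 4 endothelial markers never summed to more than 1.89 CPM. Of the leukocyte markers, CD3E was at 0 in every library and PTPRC in all but 1. These sums move with several matrix genes below, and their part in the results was not tested. In bulk RNA, fewer cells making a transcript and less of it per cell cannot be told apart.

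More matrix genes were lower than higher in each knockout. Calls were made with edgeR's quasi-likelihood test where the p-value, adjusted by Benjamini-Hochberg over 17527 genes, was under 0.05. In sgKDM5C against WT, 5 of the 51 tested members were called higher and 18 lower, where 11.1% of all tested genes were called higher and 11.5% lower. In sgKDM6A against WT, 2 members were called higher and 29 lower, beside 12.6% and 14.6% of all tested genes. In sgKMT2B against WT, 8 members were called higher and 22 lower, beside 13.7% and 14.5% of all tested genes. The 8 include LUM, which reached the counts needed for testing in sgKMT2B only. As shares of the tested members, the lower calls were 35.3% in sgKDM5C, 56.9% in sgKDM6A and 43.1% in sgKMT2B, each above the share over all genes, while the higher calls were 9.80%, 3.92% and 15.7%. The median log2 change of the members was -0.29 in sgKDM5C, -0.61 in sgKDM6A and -0.27 in sgKMT2B, against medians of 0.02, 0.01 and 0.00 over all tested genes. The members sat at higher levels than most genes, with a median WT level of 38.8 CPM against 15.1 CPM for all tested genes, and a test reaches its threshold more readily where counts are high. They were also chosen with earlier results of these data known, and the part of that choice in these shares was not tested.

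Those counts leaned on single libraries, when each comparison was refitted without each library of its own 2 groups. Calls over all tested genes also fell in every such fit, so the losses were not confined to the members. Without sgKDM5C replicate 1, 8 members were called lower in sgKDM5C and 2 higher, without sgKDM6A replicate 1, 19 were called lower in sgKDM6A, and without sgKMT2B replicate 1, 11 were called lower in sgKMT2B. The 2 higher calls of sgKDM6A both went without WT replicate 2 or without sgKDM6A replicate 2. The lower calls outnumbered the higher ones in every such fit against WT.

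Tests between knockouts, which use no WT library in the contrast, placed sgKDM6A lowest for the members as a whole, but not for the proteases. In sgKDM5C against sgKDM6A, 21 members were called higher and 5 lower, beside 10.9% and 8.86% of all tested genes. The members' median log2 change was 0.37, and that of the 10 tested proteases was -0.31, with 1 called higher and 2 lower. In sgKDM6A against sgKMT2B, 8 members were called higher and 20 lower, beside 12.4% and 12.5% of all tested genes, with a median of -0.32. The 10 tested proteases had 4 higher calls, 1 lower call and a median of 0.52 there. In sgKDM5C against sgKMT2B, 9 were called higher and 9 lower, beside 11.6% and 10.5% of all tested genes, with a median of -0.00. The lower calls against sgKMT2B include LUM and DCN for sgKDM5C and for sgKDM6A, and both genes had to be high in sgKMT2B to be tested. The last of these comparisons fell to 4 lower calls without sgKDM5C replicate 1 or without sgKMT2B replicate 2, and to 5 higher calls without sgKMT2B replicate 1. In sgKDM6A against sgKMT2B the higher calls were 5 without sgKMT2B replicate 1, and in sgKDM5C against sgKDM6A the lower calls were 2 without sgKDM5C replicate 1 or sgKDM6A replicate 2 and 3 without sgKDM5C replicate 2.

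**Figure D1:**
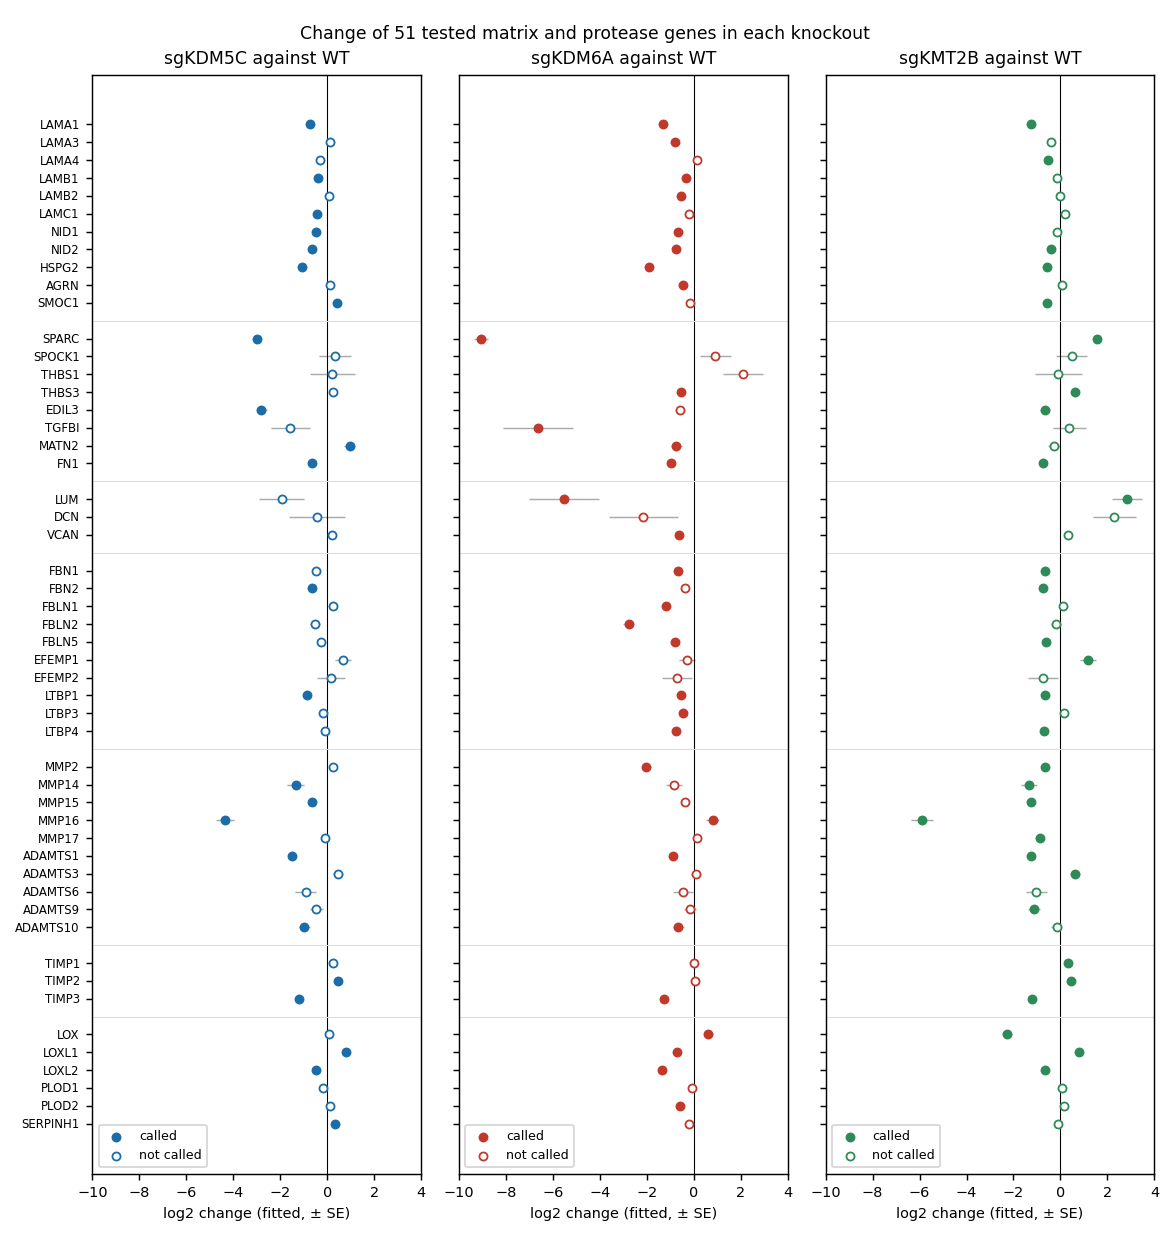
Fitted log2 change (horizontal axis) of each of the 51 tested members in sgKDM5C, sgKDM6A and sgKMT2B against WT, with bars for the SE, filled points for called genes and open points for the others, in blocks from basement membrane at the top to crosslinking enzymes at the bottom. Called points lie mostly left of 0 in all 3 panels, and in sgKDM6A the points of SPARC, TGFBI and LUM rest on 3, 0 and 0 counts in the knockout and are not bounds.

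The basement membrane genes were mostly lower in sgKDM6A. Of 11 tested, 1 was called higher and 6 lower in sgKDM5C, 0 higher and 8 lower in sgKDM6A, and 0 higher and 5 lower in sgKMT2B, beside 11.5%, 14.6% and 14.5% of all tested genes called lower. Without replicate 1 of the knockout, the lower calls were 1 for sgKDM5C, 5 for sgKDM6A and 2 for sgKMT2B. Without WT replicate 2 they were 3 for sgKMT2B. Perlecan (HSPG2, ENSG00000142798), the large heparan sulfate proteoglycan of basement membranes, had 45.3 and 57.7 CPM in sgKDM5C, 26.4 and 31.4 CPM in sgKDM6A and 70.7 and 77.8 CPM in sgKMT2B, against 110 and 108 CPM in WT. No library of any knockout reached the WT level, and the knockouts did not overlap each other. HSPG2 fell, with log2 changes of -1.08 ± 0.13 (SE) in sgKDM5C (adjusted p = 0.000151), -1.91 ± 0.13 in sgKDM6A (adjusted p = 8.05e-07) and -0.55 ± 0.13 in sgKMT2B (adjusted p = 0.00606). It was also lower in sgKDM6A than in sgKMT2B (log2 change -1.36, adjusted p = 7.34e-06), and higher in sgKDM5C than in sgKDM6A (0.83, adjusted p = 0.000668). The sgKMT2B call was lost without sgKMT2B replicate 1 (adjusted p = 0.0801).

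The laminin alpha 1 chain gene LAMA1 (ENSG00000101680), whose product pairs with LAMB1 and LAMC1 in the laminin of early embryos, had 35.7 and 45.2 CPM in sgKDM5C, 21.2 and 33.2 CPM in sgKDM6A and 26.6 and 29.8 CPM in sgKMT2B, against 65.7 and 69.0 CPM in WT. All 6 knockout libraries lay below both WT libraries. The log2 changes were -0.74 ± 0.18 in sgKDM5C (adjusted p = 0.0101, and 0.096 without sgKDM5C replicate 1), -1.31 ± 0.18 in sgKDM6A (adjusted p = 0.000215) and -1.25 ± 0.18 in sgKMT2B (adjusted p = 0.000252). The other laminin chains did not follow 1 pattern. LAMC1, the gamma chain shared by most laminins, fell in sgKDM5C (-0.44, adjusted p = 0.00583, lost at 0.0671 without sgKDM5C replicate 1) and had a log2 change of 0.18 in sgKMT2B (adjusted p = 0.177), where genes within 5 Mb of it had a median change of 0.44. LAMB2, the beta chain of kidney and synaptic basement membranes, and agrin (AGRN), which clusters acetylcholine receptors at the neuromuscular junction, fell in sgKDM6A (-0.53 and -0.47, adjusted p = 0.00159 and 0.01). Both were lower there than in sgKDM5C (adjusted p = 0.000602 and 0.00405) and than in sgKMT2B (adjusted p = 0.00214 and 0.00356), though the call of AGRN against WT was lost without WT replicate 1 or sgKDM6A replicate 1 (adjusted p = 0.077 and 0.0842).

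Both nidogens, the linkers between the laminin and collagen IV networks, were lower in sgKDM5C and sgKDM6A. NID1 had log2 changes of -0.50 and -0.69 there (adjusted p = 0.00602 and 0.000579), and NID2 of -0.63 and -0.78 (adjusted p = 0.00597 and 0.00129). In sgKMT2B, NID1 had a log2 change of -0.16 (adjusted p = 0.291) and NID2 of -0.42 (adjusted p = 0.0375). Without sgKDM5C replicate 1 the sgKDM5C calls of NID1 and NID2 were lost (adjusted p = 0.0792 and 0.0586), and the sgKMT2B call of NID2 was lost without WT replicate 2 or either sgKMT2B library (adjusted p = 0.133 to 0.178). SMOC1, a calcium-binding basement membrane protein related to SPARC, had 75.1 and 78.7 CPM in sgKDM5C, 55.5 and 46.8 CPM in sgKDM6A and 39.1 and 39.8 CPM in sgKMT2B, against 52.8 and 63.6 CPM in WT. It lay above WT in both sgKDM5C libraries and below it in both sgKMT2B libraries, with log2 changes of 0.41 (adjusted p = 0.029) and -0.56 (adjusted p = 0.00472). The sgKDM5C call of SMOC1 was lost without WT replicate 1 or either sgKDM5C library (adjusted p = 0.0899 to 0.155), whereas the difference between sgKDM5C and sgKMT2B (0.96, adjusted p = 9.28e-05) stayed called without any 1 library of the groups compared. Of the remaining chains, LAMA3 fell in sgKDM6A (-0.79, adjusted p = 0.00429, and 0.059 without sgKDM6A replicate 1), LAMA4 fell in sgKMT2B (-0.54, adjusted p = 0.0124) and LAMB1 fell in sgKDM5C and sgKDM6A (-0.39 and -0.35, adjusted p = 0.0167 and 0.0242). The LAMA4 call was lost without WT replicate 2 or sgKMT2B replicate 1 (adjusted p = 0.0714 and 0.137), and the LAMB1 calls without WT replicate 2 (adjusted p = 0.0658 and 0.111) or without replicate 1 of the knockout (adjusted p = 0.145 and 0.226).

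Among the matricellular and adhesion genes, SPARC (osteonectin, ENSG00000113140), a collagen-binding glycoprotein, had the largest fitted difference between knockouts of any tested member. It had 4.08 and 4.09 CPM in sgKDM5C, 0.0793 and 0.0357 CPM in sgKDM6A and 91.5 and 102 CPM in sgKMT2B, against 28.3 and 37.2 CPM in WT. The 4 groups did not overlap: sgKMT2B lay above WT, sgKDM5C below it, and sgKDM6A held 3 counts over its 2 libraries, against 1258 counts over the 2 WT libraries. SPARC fell by 3.00 ± 0.17 on the log2 scale in sgKDM5C (adjusted p = 4.76e-07) and rose by 1.57 ± 0.14 in sgKMT2B (adjusted p = 6.79e-06). In sgKDM6A it was 564-fold lower than in WT (95% interval of the count ratio 192 to 2737, counting error only, adjusted p = 1.1e-09), and 1719-fold lower than in sgKMT2B (588 to 8338, adjusted p = 5.94e-11). Genes within 5 Mb of SPARC had median log2 changes of -0.18, 0.02 and -0.07 in sgKDM5C, sgKDM6A and sgKMT2B. SPARC kept its 3 calls against WT without any 1 library of the groups compared.

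EDIL3, an integrin-binding protein first described in endothelium, had 2.33 and 1.85 CPM in sgKDM5C, 8.40 and 11.1 CPM in sgKDM6A and 7.71 and 10.8 CPM in sgKMT2B, against 15.5 and 13.8 CPM in WT. Its sgKDM5C libraries lay below all others. EDIL3 fell by 2.81 ± 0.24 on the log2 scale in sgKDM5C (adjusted p = 1.6e-05), and it was lower there than in sgKDM6A (-2.22, adjusted p = 2.94e-05) and than in sgKMT2B (-2.14, adjusted p = 3e-05). The call of -0.67 in sgKMT2B (adjusted p = 0.0326) was lost without either WT library or sgKMT2B replicate 1 (adjusted p = 0.0574 to 0.279). Fibronectin (FN1), the main adhesive glycoprotein of the interstitial matrix, averaged 45.9 ± 2.71 CPM in sgKDM5C, 36.4 ± 6.58 CPM in sgKDM6A and 42.4 ± 5.42 CPM in sgKMT2B, against 72.0 ± 8.09 CPM in WT (SD, n = 2 each). It fell by 0.65, 0.98 and 0.76 on the log2 scale in sgKDM5C, sgKDM6A and sgKMT2B (adjusted p = 0.00637, 0.00034 and 0.00164), with the sgKDM5C call lost without sgKDM5C replicate 1 (adjusted p = 0.0539).

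MATN2, a filament-forming matrilin, and THBS3, a pentameric thrombospondin, moved in opposite directions between knockouts. MATN2 had 10.3 and 7.68 CPM in sgKDM5C, 2.58 and 2.93 CPM in sgKDM6A and 4.30 and 3.39 CPM in sgKMT2B, against 4.34 and 4.94 CPM in WT. Its sgKDM5C libraries lay above WT and its sgKDM6A libraries below, with log2 changes of 0.96 ± 0.24 (adjusted p = 0.0108) and -0.74 ± 0.25 (adjusted p = 0.0407), and a difference of 1.71 between the 2 knockouts (adjusted p = 0.000269). THBS3 had 9.54 and 9.91 CPM in sgKDM5C, 5.51 and 5.90 CPM in sgKDM6A and 12.4 and 12.8 CPM in sgKMT2B, against 8.30 and 8.32 CPM in WT. It was lower than WT in sgKDM6A (-0.54 ± 0.17, adjusted p = 0.0323) and higher in sgKMT2B (0.60 ± 0.17, adjusted p = 0.0161), and sgKDM6A and sgKMT2B differed by -1.15 (adjusted p = 0.000241). The calls of THBS3 and MATN2 against WT in sgKDM6A were lost when any 1 library of the groups compared was left out (adjusted p = 0.0622 to 0.184). That of MATN2 in sgKDM5C was lost without WT replicate 1 or sgKDM5C replicate 1 (adjusted p = 0.0586 and 0.12), and that of THBS3 in sgKMT2B without WT replicate 2 or either sgKMT2B library (adjusted p = 0.0537 to 0.0801). THBS3 and MATN2 lie on the strand opposite to MTX1 and RPL30, whose gene spans overlap theirs. The sources used here give no strand setting for the counting, so reads of the partners cannot be told apart where exons overlap. Overlap of the exons was not checked. MTX1 and RPL30 had log2 changes of 0.42 and 0.41 in sgKMT2B (adjusted p = 0.0238 and 0.0321). The same limit holds for LAMB1, NID2 and SMOC1, whose spans overlap DLD, RTRAF and RPL7AP6 on the other strand. These partners held 23339, 20643 and 7505 counts over all libraries, and DLD had a log2 change of 0.51 in sgKDM6A (adjusted p = 0.0206). EFEMP2, THBS1 and BGN, with 191, 74 and 11 counts over all libraries, have the limit too. Their partners on the other strand, MUS81, FSIP1 and HAUS7, held 9078, 81 and 170 counts. HAUS7 had a log2 change of 1.59 in sgKMT2B (adjusted p = 0.0544).

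The other matricellular genes had few counts. TGFBI, a secreted integrin ligand induced by TGF-beta, had 9 counts over the sgKDM5C libraries, 0 over the sgKDM6A libraries and 33 over the sgKMT2B libraries, against 19 over the WT libraries. It was at least 8.51-fold lower in sgKDM6A than in WT (taking 3 counts in the knockout as the floor, adjusted p = 0.00618). The testican SPOCK1 and thrombospondin 1 (THBS1) were called in no knockout, and THBS1 reached the filter's level in sgKDM6A only, with a log2 change of 2.10 (adjusted p = 0.0828). THBS2, with 3, 0, 3 and 4 counts over sgKDM5C, sgKDM6A, sgKMT2B and WT, was not tested.

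The proteoglycans of the interstitial matrix were near the detection limit, apart from versican. Lumican (LUM), a small leucine-rich proteoglycan that binds collagen fibrils, had 3 counts over the sgKDM5C libraries, 0 over the sgKDM6A libraries and 84 over the sgKMT2B libraries, against 9 over the WT libraries. In CPM that was 1.25 and 2.09 in sgKMT2B and 0.206 and 0.260 in WT, so the groups did not overlap, with a fitted log2 difference of 2.84 ± 0.65. LUM was at least 4.03-fold lower in sgKDM6A than in WT (adjusted p = 0.0166), and at least 29.6-fold lower in sgKDM6A than in sgKMT2B. The sgKDM6A call against WT was lost without WT replicate 2 or either sgKDM6A library (adjusted p = 0.0527 to 0.0765). Decorin (DCN), a member of the same family, had 4, 1 and 26 counts over sgKDM5C, sgKDM6A and sgKMT2B against 4 over WT, and was called in no knockout against WT. LUM and DCN passed the filter through the sgKMT2B libraries only, so a high value there was needed for them to be tested, and their sgKMT2B values are a description. Biglycan (BGN), with 0, 0 and 10 counts against 1, was not tested, and reads of HAUS7 cannot be told apart from its own where exons overlap. Versican (VCAN), a large hyaluronan-binding proteoglycan, averaged 48.4 ± 11.2 CPM in sgKDM5C, 27.4 ± 2.03 CPM in sgKDM6A and 52.0 ± 5.01 CPM in sgKMT2B, against 42.0 ± 1.44 CPM in WT (SD, n = 2 each). Its level in sgKDM6A fell by 0.62 on the log2 scale (adjusted p = 0.00903, and 0.0762 without sgKDM6A replicate 1) and was lower than in sgKDM5C and sgKMT2B (adjusted p = 0.00186 and 0.000539).

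Of the 10 elastic fibre and TGF-beta-binding genes tested, 2 were called lower in sgKDM5C, 7 in sgKDM6A and 5 in sgKMT2B, where 1 was called higher, beside 11.5%, 14.6% and 14.5% of all tested genes called lower. The sgKMT2B count was 2 without sgKMT2B replicate 1 and 3 without WT replicate 2. The median log2 change was -0.21, -0.70 and -0.64. Fibulin 1 (FBLN1), a calcium-binding glycoprotein of basement membranes and elastic fibres, had 307 and 326 CPM in sgKDM5C, 111 and 121 CPM in sgKDM6A and 270 and 300 CPM in sgKMT2B, against 265 and 263 CPM in WT. Fibulin 2 (FBLN2) had 8.85 and 9.46 CPM in sgKDM5C, 1.43 and 2.43 CPM in sgKDM6A and 12.2 and 10.8 CPM in sgKMT2B, against 12.9 and 13.6 CPM in WT. For both, the sgKDM6A libraries stood below every other library. FBLN1 fell by 1.19 ± 0.09 on the log2 scale in sgKDM6A (adjusted p = 2.31e-06) and FBLN2 by 2.77 ± 0.23 (adjusted p = 5.33e-06), and both were lower in sgKDM6A than in sgKDM5C (adjusted p = 2.65e-07 and 2.16e-05) and than in sgKMT2B (adjusted p = 3.98e-07 and 3.86e-06). In sgKDM5C and sgKMT2B the changes against WT were 0.26 and 0.11 for FBLN1 (adjusted p = 0.0522 and 0.402) and -0.53 and -0.20 for FBLN2 (adjusted p = 0.0775 and 0.499). FBLN1 was called higher in sgKDM5C with upper-quartile factors (adjusted p = 0.0337), with a minimum mean of 1 CPM (adjusted p = 0.0424) and with the replicate number as a block (adjusted p = 0.0266).

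Fibulin 5 (FBLN5), needed for elastic fibre assembly, fell in sgKDM6A and sgKMT2B (-0.80 and -0.62, adjusted p = 0.00257 and 0.0102), the second call being lost without sgKMT2B replicate 1 (adjusted p = 0.121). The fibrillins form the microfibril core. FBN1 fell in sgKDM6A and sgKMT2B (-0.68 and -0.65, adjusted p = 0.0108 and 0.0127) and FBN2 in sgKDM5C and sgKMT2B (-0.65 and -0.75, adjusted p = 0.00321 and 0.000878). Both FBN1 calls were lost without WT replicate 2 (adjusted p = 0.0918 and 0.102), that of sgKDM6A also without sgKDM6A replicate 1 (adjusted p = 0.123) and that of sgKMT2B without either of its libraries (adjusted p = 0.0792 and 0.06). LTBP1 and LTBP4 hold latent TGF-beta in the matrix. LTBP1 fell in sgKDM5C, sgKDM6A and sgKMT2B by 0.88, 0.57 and 0.67 on the log2 scale (adjusted p = 0.00253, 0.0207 and 0.00813). Genes within 5 Mb of LTBP1 had a median log2 change of -0.46 in sgKDM5C, so the neighbourhood was lower there too. Its sgKDM6A call was lost without WT replicate 2 or either sgKDM6A library (adjusted p = 0.056 to 0.177), and its sgKMT2B call without WT replicate 2 or sgKMT2B replicate 1 (adjusted p = 0.0774 and 0.0686).

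LTBP4 averaged 204 ± 3.03 CPM in sgKDM5C, 129 ± 2.46 CPM in sgKDM6A and 132 ± 10.1 CPM in sgKMT2B, against 216 ± 24.1 CPM in WT (SD, n = 2 each). It fell in sgKDM6A and sgKMT2B (-0.74 and -0.71, adjusted p = 0.000169 and 0.000198) and was higher in sgKDM5C than in either (0.66 and 0.63, adjusted p = 0.000455 and 0.000525). LTBP3 fell in sgKDM6A (-0.45, adjusted p = 0.0039) and was lower there than in sgKMT2B (-0.60, adjusted p = 0.000443). EFEMP1 (fibulin 3) rose in sgKMT2B (1.18 ± 0.33, adjusted p = 0.0176), to 3.82 and 4.14 CPM, against 1.86 and 1.62 CPM in WT. That call was lost without WT replicate 2 or either sgKMT2B library (adjusted p = 0.0609 to 0.0838). EFEMP2 (fibulin 4) was called in no knockout.

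**Figure D2:**
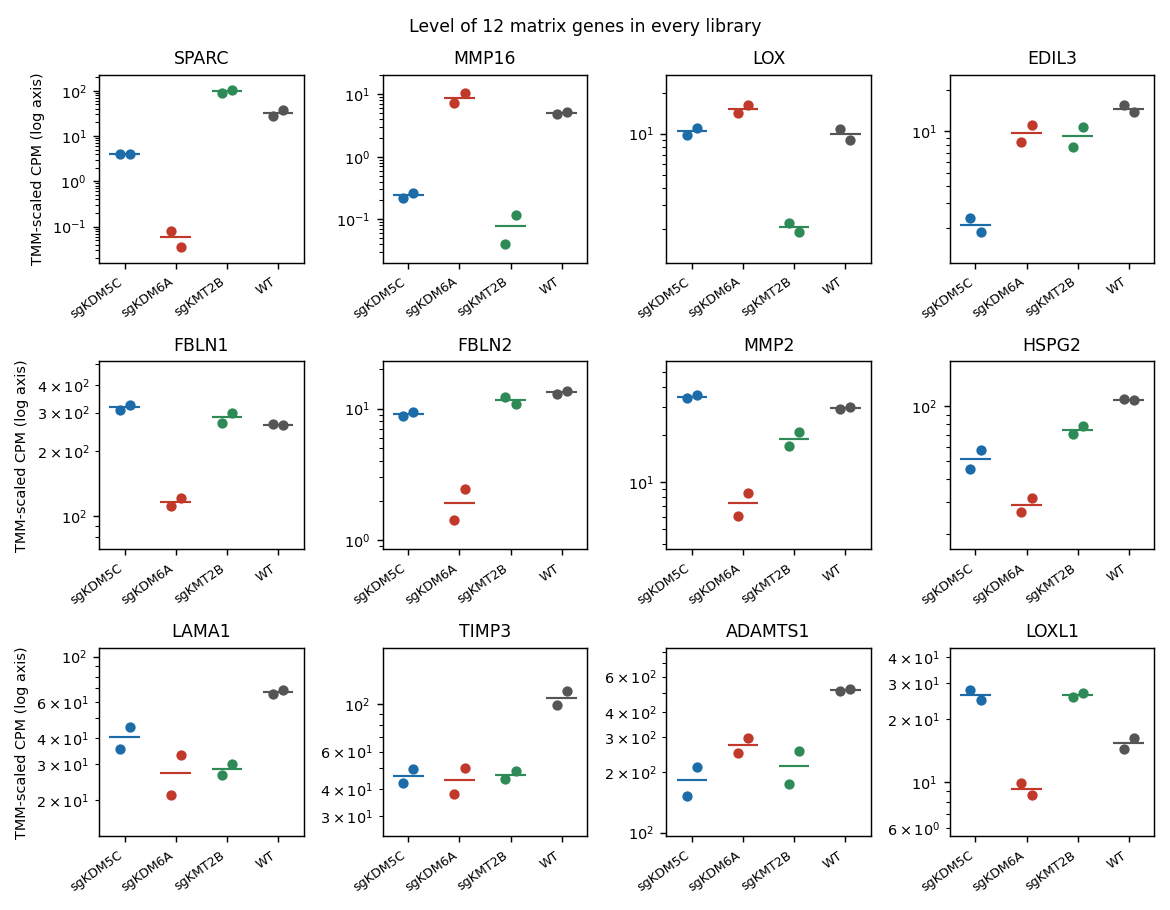
TMM-scaled CPM (vertical log axis, each panel with its own range) of 12 members in every library, with points for the 2 libraries of each group and a bar at their mean, and groups ordered sgKDM5C, sgKDM6A, sgKMT2B and WT. SPARC runs from 0.0357 CPM in sgKDM6A to 102 CPM in sgKMT2B, LOX is lowest in sgKMT2B, EDIL3 in sgKDM5C, and FBLN1, FBLN2 and MMP2 in sgKDM6A, while TIMP3 and ADAMTS1 are below WT in all 6 knockout libraries.

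The proteases had more lower than higher calls in each knockout. Of 10 tested, 0 were called higher and 5 lower in sgKDM5C, 1 higher and 3 lower in sgKDM6A, and 1 higher and 7 lower in sgKMT2B, beside 11.5%, 14.6% and 14.5% of all tested genes called lower. Without replicate 1 of the knockout the lower calls were 2 in sgKDM5C and 4 in sgKMT2B, and without WT replicate 2 they were 3 in sgKDM5C. In sgKDM6A they were 2 without WT replicate 2 or sgKDM6A replicate 1. MMP16 (MT3-MMP, ENSG00000156103), a membrane-bound protease that activates MMP2, had 0.218 and 0.265 CPM in sgKDM5C, 7.10 and 10.4 CPM in sgKDM6A and 0.0402 and 0.118 CPM in sgKMT2B, against 4.79 and 5.26 CPM in WT. The groups did not overlap, and the sgKDM5C and sgKMT2B libraries held 13 and 4 counts in all, against 197 counts in WT. MMP16 fell by 4.35 ± 0.38 on the log2 scale in sgKDM5C (adjusted p = 1.74e-05) and by 5.89 ± 0.46 in sgKMT2B (adjusted p = 1.68e-06), and it rose by 0.80 ± 0.27 in sgKDM6A (adjusted p = 0.0398). The rise in sgKDM6A was lost without either WT library or sgKDM6A replicate 2 (adjusted p = 0.0992 to 0.33) and in a DESeq2 Wald test (adjusted p = 0.0632). The differences from sgKDM6A, -5.15 in sgKDM5C and 6.69 in sgKDM6A against sgKMT2B, stayed called in every such fit (adjusted p = 6.78e-07 and 1.96e-07 with all libraries). Genes within 5 Mb of MMP16 had median log2 changes of -0.02, 0.07 and 0.05 in sgKDM5C, sgKDM6A and sgKMT2B.

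MMP2 (gelatinase A), which cuts denatured collagen and collagen IV, had 34.0 and 35.7 CPM in sgKDM5C, 6.07 and 8.50 CPM in sgKDM6A and 16.9 and 20.8 CPM in sgKMT2B, against 29.2 and 29.96 CPM in WT. It was lowest in sgKDM6A, with no overlap between groups. MMP2 fell by 2.02 ± 0.17 on the log2 scale in sgKDM6A (adjusted p = 5.7e-06) and by 0.65 ± 0.16 in sgKMT2B (adjusted p = 0.00955, and 0.123 without sgKMT2B replicate 1), and its log2 change in sgKDM5C was 0.23 (adjusted p = 0.315). It was lower in sgKDM6A than in sgKMT2B (-1.37, adjusted p = 6.77e-05), and higher in sgKDM5C than in sgKDM6A (2.25, adjusted p = 1.22e-06). So between these knockouts MMP2 was higher in sgKDM5C and its activator MMP16 was lower.

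The remaining membrane-type MMPs were lowest in sgKMT2B or at low levels. MMP15 (MT2-MMP) had 29.9 and 39.7 CPM in sgKDM5C, 34.2 and 50.0 CPM in sgKDM6A and 21.4 and 23.9 CPM in sgKMT2B, against 52.4 and 55.8 CPM in WT. It fell by 1.26 ± 0.18 on the log2 scale in sgKMT2B (adjusted p = 0.000228) and by 0.64 in sgKDM5C (adjusted p = 0.0191, lost at 0.0731 without WT replicate 2 and at 0.17 without sgKDM5C replicate 1). MMP17 (MT4-MMP), anchored by a lipid, averaged 14.7 ± 0.79 CPM in sgKDM5C, 17.0 ± 0.661 CPM in sgKDM6A and 8.44 ± 2.00 CPM in sgKMT2B, against 15.7 ± 1.08 CPM in WT (SD, n = 2 each), and fell by 0.89 on the log2 scale in sgKMT2B (adjusted p = 0.00248). MMP14 (MT1-MMP), the main activator of MMP2 in many tissues, stood at 1.32 ± 0.272 CPM in sgKDM5C, 1.87 ± 0.164 CPM in sgKDM6A and 1.33 ± 0.291 CPM in sgKMT2B, against 3.40 ± 1.07 CPM in WT (SD, n = 2 each). Its calls in sgKDM5C (-1.35, adjusted p = 0.0152) and sgKMT2B (-1.33, adjusted p = 0.013) were lost without WT replicate 2 (adjusted p = 0.114 and 0.109) or without replicate 1 of the knockout (adjusted p = 0.112 and 0.11).

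ADAMTS1, which cuts versican and aggrecan, was the second member by length-scaled level in WT. It had 153 and 212 CPM in sgKDM5C, 250 and 298 CPM in sgKDM6A and 175 and 255 CPM in sgKMT2B, against 507 and 521 CPM in WT. All 6 knockout libraries lay below WT, and those of the knockouts overlapped in part. ADAMTS1 fell by 1.496 ± 0.17, 0.91 ± 0.17 and 1.26 ± 0.17 on the log2 scale in sgKDM5C, sgKDM6A and sgKMT2B (adjusted p = 0.000118, 0.00159 and 0.000147), and the 3 calls stayed without any 1 library of the groups compared. ADAMTS9, a further versican-cutting protease, had 5.13 and 8.63 CPM in sgKDM5C, 8.05 and 8.82 CPM in sgKDM6A and 3.33 and 5.32 CPM in sgKMT2B, against 8.96 and 10.01 CPM in WT. It fell by 1.13 ± 0.27 on the log2 scale in sgKMT2B (adjusted p = 0.00766, and 0.0954 without sgKMT2B replicate 1). ADAMTS10, which binds fibrillin microfibrils, fell in sgKDM5C and sgKDM6A (-0.99 and -0.67, adjusted p = 0.00905 and 0.0455), the first call being lost without sgKDM5C replicate 1 (adjusted p = 0.0855) and the second without either WT library or sgKDM6A replicate 1 (adjusted p = 0.101 to 0.34). ADAMTS3, a procollagen peptidase, was called higher in sgKMT2B (0.64, adjusted p = 0.0377), which was lost without any 1 library of the groups compared (adjusted p = 0.0744 to 0.183). ADAMTS6 was called in no knockout, and ADAMTS5, with 0, 17 and 2 counts over sgKDM5C, sgKDM6A and sgKMT2B against 2 over WT, was not tested.

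The 3 inhibitors did not move together. TIMP3 (ENSG00000100234), the inhibitor that stays bound to the matrix, had 42.6 and 49.5 CPM in sgKDM5C, 38.1 and 50.0 CPM in sgKDM6A and 44.4 and 48.9 CPM in sgKMT2B, against 99.6 and 115 CPM in WT. All 6 knockout libraries lay below both WT libraries, and the knockouts overlapped each other. TIMP3 fell by 1.22 ± 0.14, 1.28 ± 0.14 and 1.202 ± 0.14 on the log2 scale in sgKDM5C, sgKDM6A and sgKMT2B (adjusted p = 0.000128, 3.76e-05 and 5.24e-05), and the calls stayed without any 1 library of the groups compared. The 3 comparisons share the WT libraries. The tests between knockouts gave differences of 0.06, -0.02 and -0.08 (adjusted p = 0.8, 0.944 and 0.723), which does not show that the knockouts were equal. TIMP2, which also takes part in the activation of MMP2, averaged 86.4 ± 2.10 CPM in sgKDM5C, 64.6 ± 5.83 CPM in sgKDM6A and 85.7 ± 0.729 CPM in sgKMT2B, against 63.2 ± 2.67 CPM in WT (SD, n = 2 each). It rose in sgKDM5C and sgKMT2B (0.45 and 0.44, adjusted p = 0.00743 and 0.00647), the sgKDM5C call going without sgKDM5C replicate 2 (adjusted p = 0.0508). TIMP1, the member with the highest length-scaled level in every group, was called higher in sgKMT2B (0.32, adjusted p = 0.0478). That call was lost without WT replicate 2 or either sgKMT2B library (adjusted p = 0.0896 to 0.308).

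The lysyl oxidases, copper enzymes that start the crosslinking of collagen and elastin, moved in different directions within the same knockout. LOX (ENSG00000113083) had 9.80 and 11.01 CPM in sgKDM5C, 14.2 and 16.2 CPM in sgKDM6A and 2.21 and 1.89 CPM in sgKMT2B, against 10.8 and 8.97 CPM in WT. Its sgKMT2B libraries lay below all others and its sgKDM6A libraries above them. LOX fell by 2.27 ± 0.21 on the log2 scale in sgKMT2B (adjusted p = 6.79e-06) and rose by 0.61 ± 0.18 in sgKDM6A (adjusted p = 0.0217), where the call was lost without WT replicate 2 or sgKDM6A replicate 2 (adjusted p = 0.124 and 0.134). The difference between sgKDM6A and sgKMT2B was 2.89 (adjusted p = 3.84e-07). SRFBP1, which overlaps LOX on the other strand, had a log2 change of 0.57 in sgKDM6A (adjusted p = 0.0391).

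LOXL1, the lysyl oxidase of elastic fibres, had 27.7 and 24.8 CPM in sgKDM5C, 9.87 and 8.68 CPM in sgKDM6A and 25.8 and 26.9 CPM in sgKMT2B, against 14.4 and 16.2 CPM in WT. Both sgKDM6A libraries lay below WT, and those of the other 2 knockouts above it. LOXL1 rose by 0.78 ± 0.14 on the log2 scale in both sgKDM5C and sgKMT2B (adjusted p = 0.00235 and 0.00143) and fell by 0.72 ± 0.15 in sgKDM6A (adjusted p = 0.00342). It was higher in sgKDM5C than in sgKDM6A (1.501, adjusted p = 1.31e-05), and lower in sgKDM6A than in sgKMT2B (-1.51, adjusted p = 7.65e-06). The antisense gene LOXL1-AS1 had a log2 change of -1.32 in sgKDM6A (adjusted p = 7.46e-05), and without a known strand setting its reads cannot be told apart from those of LOXL1 where the exons overlap.

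LOXL2, which crosslinks collagen IV, had 26.1 and 29.02 CPM in sgKDM5C, 15.1 and 15.1 CPM in sgKDM6A and 23.5 and 26.2 CPM in sgKMT2B, against 43.0 and 34.5 CPM in WT. Every knockout library lay below both WT libraries. The span of ENTPD4 overlaps that of LOXL2 on the same strand, and ENTPD4 had log2 changes of 0.41 and 0.48 in sgKDM6A and sgKMT2B (adjusted p = 0.0443 and 0.0211). LOXL2 fell by 1.36 ± 0.14 on the log2 scale in sgKDM6A (adjusted p = 3.06e-05), by 0.64 in sgKMT2B (adjusted p = 0.00439, lost at 0.0649 without sgKMT2B replicate 1) and by 0.50 in sgKDM5C (adjusted p = 0.0222, lost at 0.156 without WT replicate 1 and at 0.155 without sgKDM5C replicate 1). PLOD2, the lysyl hydroxylase of collagen telopeptides, fell in sgKDM6A (-0.61, adjusted p = 0.00375), where genes within 5 Mb of it had a median log2 change of -0.31, and it was lower there than in sgKDM5C and sgKMT2B (adjusted p = 0.00143 and 0.000684). PLOD1, the helical lysyl hydroxylase, was called in no knockout. SERPINH1, the collagen chaperone HSP47, averaged 236 ± 14.9 CPM in sgKDM5C, 160 ± 10.4 CPM in sgKDM6A and 175 ± 2.73 CPM in sgKMT2B, against 186 ± 20.3 CPM in WT (SD, n = 2 each). It was called higher in sgKDM5C (0.34, adjusted p = 0.0243), which was lost without WT replicate 1 or sgKDM5C replicate 1 (adjusted p = 0.115 and 0.182), and it was higher in sgKDM5C than in sgKDM6A (0.56, adjusted p = 0.00139).

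Read across the roles, 8 members were called lower in each knockout against the same WT libraries: LAMA1, NID2, HSPG2, FN1, LTBP1, ADAMTS1, TIMP3 and LOXL2. They were 15.7% of the tested members, chosen with earlier results of these data known, where 3.31% of all tested genes were lower in each knockout. Only 4 remained without sgKDM5C replicate 1 (ADAMTS1, HSPG2, LTBP1 and TIMP3), and 4 without sgKMT2B replicate 1 (ADAMTS1, FN1, LAMA1 and TIMP3). A further 9 were called lower in sgKDM6A and not called in the other 2 knockouts (LAMA3, LAMB2, AGRN, TGFBI, VCAN, FBLN1, FBLN2, LTBP3 and PLOD2). The share of all tested genes with this pattern was not counted, so the 9 are a description. As given above, the sgKDM6A calls of LAMA3, AGRN and VCAN were lost without sgKDM6A replicate 1. These 9 were picked by low values in the same sgKDM6A libraries, which makes lower calls likely in the tests between knockouts. There, 7 of the 9 were called lower in sgKDM6A than in both sgKDM5C and sgKMT2B. The exceptions were LAMA3, with a log2 change of -0.38 in sgKDM6A against sgKMT2B (adjusted p = 0.124), and TGFBI, with an adjusted p of 0.0556 between sgKDM5C and sgKDM6A. Among the 7, the LTBP3 difference between sgKDM5C and sgKDM6A (0.29, adjusted p = 0.0487) was lost with DESeq2 size factors (adjusted p = 0.0547) and without any 1 library of the groups compared (adjusted p = 0.158 to 0.243).

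The promoters of 4 members whose calls were among the clearest are shown, each as the 250 bases before the transcription start that RefSeq gives on GRCh38.p14, read 5′ to 3′ on the gene's strand. SPARC spans chr5:151686916-151687165 on the minus strand, LOX chr5:122078260-122078509 on the minus strand (the first of 3 starts listed), TIMP3 chr22:32801455-32801704 on the plus strand and HSPG2 chr1:21937311-21937560 on the minus strand. Capitals mark matches, on either strand, to GGAATG (the core bound by TEAD factors) in SPARC and to GGGCGG (the SP1 box) in the other 3 promoters, and overlapping matches run together.
SPARC: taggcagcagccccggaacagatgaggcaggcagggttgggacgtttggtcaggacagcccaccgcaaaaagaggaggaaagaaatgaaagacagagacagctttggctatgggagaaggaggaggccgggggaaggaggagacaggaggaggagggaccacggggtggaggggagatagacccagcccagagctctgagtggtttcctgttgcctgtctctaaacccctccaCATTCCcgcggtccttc
LOX: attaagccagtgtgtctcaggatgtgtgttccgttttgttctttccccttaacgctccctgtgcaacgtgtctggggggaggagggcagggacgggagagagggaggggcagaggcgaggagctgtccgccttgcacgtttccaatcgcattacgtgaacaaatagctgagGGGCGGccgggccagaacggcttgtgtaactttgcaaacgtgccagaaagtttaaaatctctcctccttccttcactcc
TIMP3: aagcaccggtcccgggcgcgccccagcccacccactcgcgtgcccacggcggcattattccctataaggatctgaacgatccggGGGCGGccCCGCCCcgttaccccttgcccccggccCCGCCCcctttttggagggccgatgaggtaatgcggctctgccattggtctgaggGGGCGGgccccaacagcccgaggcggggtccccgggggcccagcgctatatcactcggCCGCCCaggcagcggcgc
HSPG2: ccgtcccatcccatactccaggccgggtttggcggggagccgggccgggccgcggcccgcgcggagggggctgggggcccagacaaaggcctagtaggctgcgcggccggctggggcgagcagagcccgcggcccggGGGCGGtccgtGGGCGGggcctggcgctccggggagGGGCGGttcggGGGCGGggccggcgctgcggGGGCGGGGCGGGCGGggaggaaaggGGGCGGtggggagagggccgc
SPARC, the member that differed most between knockouts, had a promoter with 59.2% G and C bases and 7 CG pairs, and 1 TEAD match on the opposite strand 17 bases before the start. LOX, lowest in sgKMT2B, had 55.2%, 13 CG pairs and 1 SP1 box. TIMP3 and HSPG2, lower in all 3 knockouts, had 72.4% and 82.8% with 26 and 33 CG pairs, and 5 and 8 SP1 boxes in these 250 bases.

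Of the 54 members, 39 had such windows in the RefSeq table used, 51 windows in all since some genes list several starts, each of 300 bases with 50 of them after the start. Over the 250 bases before the start, the median share of G and C was 68.4% in the member windows. It was 58% over 35116 windows of all genes, and the median CG pairs were 18 against 11. The motifs below were searched in all 300 bases. The SP1 box GGGCGG was in 72.5% of member windows and 45% of all windows. The AP-1 site TGANTCA was in 1.96% and 7.71%, the TEAD core GGAATG in 11.8% and 14%, the E-box CACGTG in 3.92% and 7.26%, CAGGTG, the E-box bound by SNAI factors, in 19.6% and 20.6%, and the TATA box TATAAA in 7.84% and 11.5%. Both strands were searched, and the part of base composition in these shares was not tested. A match is only a run of letters, and its absence says nothing of the factor.

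Per kilobase of merged exons, which allows genes to be compared, TIMP1 had the highest mean level of the members in each group, with 135 CPM per kb in sgKDM5C, 114 in sgKDM6A and 143 in sgKMT2B, against 114 in WT. ADAMTS1 followed in WT at 72.8 CPM per kb, then NID1 at 44.7, FBLN1 at 36.3, PLOD1 at 31.9 and LAMC1 at 30.7. SPARC ranked 39th of 54 in sgKDM5C, 49th in sgKDM6A and 10th in sgKMT2B, against 20th in WT. On this scale FBLN1 stood at 43.5 CPM per kb in sgKDM5C, 15.9 in sgKDM6A and 39.1 in sgKMT2B, against 36.3 in WT. The basement membrane genes were spread over the WT ranks, with NID1 3rd, LAMC1 6th and LAMB2 9th, and LAMA1, LAMA4 and LAMA3 26th, 35th and 36th. The protease inhibitors TIMP1, TIMP3 and TIMP2 ranked 1st, 10th and 15th in WT. The fibril-associated proteoglycans LUM, DCN and BGN were among the rarest members. Between 8 and 10 members had a mean below 1 CPM in each group.

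**Figure D3:**
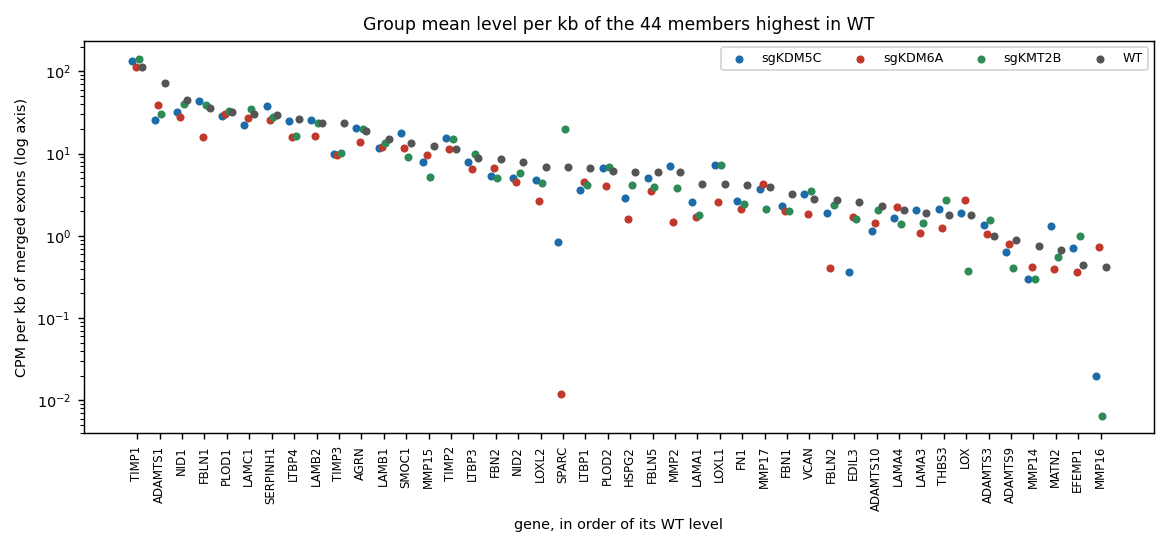
Mean level per kilobase of merged exons (vertical log axis, CPM per kb) in sgKDM5C, sgKDM6A, sgKMT2B and WT for the members highest in WT, ordered by their WT level from TIMP1 on the left to MMP16 on the right. The 4 groups lie close together for most genes, and SPARC, EDIL3, FBLN2, LOX and MMP16 have a group far below the others.

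The genes around each member were summarised to show where a neighbourhood moved with it. The median change of genes within 5 Mb was beyond 0.3 log2 in either direction at LTBP1 (-0.46) and EFEMP1 (-0.35) in sgKDM5C, at PLOD2 (-0.31) in sgKDM6A, and at LAMC1 (0.44), LAMA4 (0.34) and the untested THBS2 (0.30) in sgKMT2B. At the other members it was smaller. For SPARC, MMP16, EDIL3, FBLN2, MMP2 and LOX the neighbourhood median stayed within 0.2 log2 of 0 in every knockout, while the gene itself changed by 2 log2 or more in at least 1. The copy number of these segments was not tested.

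**Figure D4:**
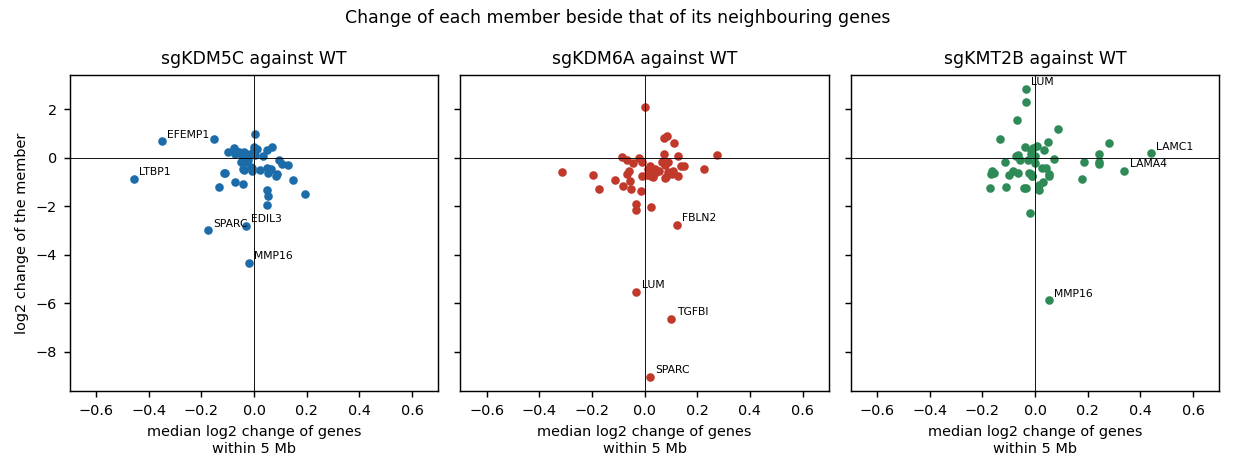
Log2 change of each tested member (vertical axis) against the median log2 change of tested genes within 5 Mb of it (horizontal axis) in sgKDM5C, sgKDM6A and sgKMT2B against WT. The horizontal range is under 0.5 log2 on either side of 0, and members with large changes, such as SPARC, MMP16, FBLN2 and TGFBI, sit near the vertical line.

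Other matrix genes, from lists drawn up beside the members, were counted in the same way, beside the shares of all tested genes given above (12.6% higher and 14.6% lower in sgKDM6A). The lists are short, were chosen with earlier results of these data known, and several of their counts lie at or under those shares. The cell-surface proteoglycans had 1 higher and 4 lower calls of 12 in sgKDM5C, 0 higher and 7 lower in sgKDM6A and 1 higher and 5 lower in sgKMT2B. Syndecan 1 (SDC1) fell by 1.87 on the log2 scale in sgKDM6A (adjusted p = 4.53e-07). The matrix receptors had 5 higher and 4 lower calls of 19 tested in sgKDM5C, 3 higher and 8 lower in sgKDM6A and 3 higher and 8 lower in sgKMT2B. ITGB4, the integrin chain of hemidesmosomes that binds laminin, had 6.78 and 5.75 CPM in sgKDM6A and 10.04 and 9.34 CPM in sgKMT2B, against 33.3 and 36.0 CPM in WT, and fell by 2.47 and 1.84 on the log2 scale (adjusted p = 2.01e-07 and 1.68e-06). DDR2, a collagen receptor, fell by 1.5004 in sgKDM6A (adjusted p = 8.35e-07).

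The other laminins and glycoproteins had 4 higher and 2 lower calls of 13 tested in sgKDM5C, 3 higher and 4 lower in sgKDM6A and 4 higher and 1 lower in sgKMT2B. MFAP4, a microfibril-associated protein, had 12.5 and 10.2 CPM in sgKDM5C, 0.555 and 0.214 CPM in sgKDM6A and 11.6 and 11.1 CPM in sgKMT2B, against 3.35 and 4.62 CPM in WT. It rose by 1.53 on the log2 scale in both sgKDM5C and sgKMT2B (adjusted p = 0.00124 and 0.00073) and fell by 3.36 in sgKDM6A (adjusted p = 3.05e-05). The other matrix proteases had 0 higher and 5 lower calls of 18 tested in sgKDM5C, 2 higher and 5 lower in sgKDM6A and 1 higher and 7 lower in sgKMT2B. ADAMTS7 fell by 1.90 in sgKDM6A (adjusted p = 4.62e-06). ADAMTS12, with 0 counts in sgKDM5C and WT and 4 in sgKMT2B, had 84 counts in each sgKDM6A library. ADAMTS12 passed the filter through the sgKDM6A libraries only, so this value is a description, though it is among the 2 higher calls there. The other collagen and crosslinking enzymes had 0 higher and 1 lower call of 13 in sgKDM5C, 0 higher and 4 lower in sgKDM6A and 1 higher and 3 lower in sgKMT2B, with LOXL4 down by 1.51 in sgKDM6A (adjusted p = 0.000142). The TGF-beta ligands and receptors had 1 higher and 0 lower of 11 in sgKDM5C, 3 higher and 1 lower in sgKDM6A and 1 higher and 2 lower in sgKMT2B. TGFB1 fell by 1.13 in sgKMT2B (adjusted p = 2.45e-05), and SMAD7, an inhibitor that TGF-beta signalling induces, rose by 1.17 in sgKDM6A (adjusted p = 0.000998).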

How the data were processed

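Poly(A) RNA of 8 HEK293T libraries was sequenced as paired reads, per the labels' protocols. The authors deposited raw read counts per Ensembl gene, made with STAR and HTSeq 0.11.2 on GRCh38, per the submitters' processing notes. For the STAR version, annotation release and strand setting: not given in the sources used here. Groups and replicate numbers came from the labels.

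Tests on these counts used edgeR 4.0.16 under R 4.3.3 (glmQLFit and glmQLFTest on all 8 libraries, 1 coefficient per group, 4 residual degrees of freedom, TMM factors, filterByExpr by group, which left 17527 genes), with Benjamini-Hochberg adjustment within each of 6 comparisons and a threshold of 0.05. The code was tested on simulated data. Replicates differed by more than sampling noise (chi-square per degree of freedom 7.57 to 15.3) and each library counted as 1 replicate. Exon lengths and neighbours came from the GENCODE annotation of GRCh38. Intervals and floors cover counting error only, and a depth of 15868353 to 27591724 counts limits genes near 3 counts.

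The members and lists were chosen with earlier results of these data known. Values in every library are given for members called in at least 1 knockout against WT with a log2 change of at least 1 (5 CPM or more on average in the higher group), or called in opposite directions in 2 knockouts. Genes named from each other list come from the 3 with the smallest adjusted p against WT. Not all of those 3 are named, and most that are named are given by log2 change only. Alternatives were DESeq2 size factors, upper-quartile factors, a DESeq2 Wald test, no filter, a minimum mean of 1 CPM, fits of only the groups compared, a replicate block, thinning to the smallest total and leaving out each library of the groups compared. The sum of the leukocyte markers is not reported here.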

Additional observations from a re-analysis of the deposited data

Results flagged for a closer look

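In all, 8 members were called in opposite directions against WT in 2 knockouts, with those knockouts also differing in their direct test (edgeR quasi-likelihood, adjusted over all genes). They were 15.7% of the tested members, chosen with earlier results of these data known, where 2.81% of all tested genes had such a pattern. A gene with opposite calls will mostly also differ directly. The 8 include LUM, which had to be high in sgKMT2B to be tested, so the share with it is a description. The count was 3 without WT replicate 1 (LOX, LOXL1 and SPARC), and 3 without WT replicate 2 or without sgKDM6A replicate 2 (LOXL1, SMOC1 and SPARC). It was 5 without sgKDM6A replicate 1 and 6 or 7 without each other library, and SPARC and LOXL1 were in it each time. SPARC differed by a log2 change of -4.57 in sgKDM5C against sgKMT2B (adjusted p = 1.23e-09) and by -10.62 in sgKDM6A against sgKMT2B (adjusted p = 5.94e-11), a fitted value that rests on 3 counts in sgKDM6A. MMP16 differed by -5.15 in sgKDM5C against sgKDM6A (adjusted p = 6.78e-07) and by 6.69 in sgKDM6A against sgKMT2B (adjusted p = 1.96e-07). LUM had a fitted difference of -8.36 in sgKDM6A against sgKMT2B, with 0 counts in sgKDM6A, where the counts bound it at 29.6-fold. It passed the filter through sgKMT2B only, so this value is a description. LOX differed by 2.89 in sgKDM6A against sgKMT2B (adjusted p = 3.84e-07). LOXL1 differed by 1.501 in sgKDM5C against sgKDM6A (adjusted p = 1.31e-05) and by -1.51 in sgKDM6A against sgKMT2B (adjusted p = 7.65e-06). MATN2 differed by 1.71 in sgKDM5C against sgKDM6A (adjusted p = 0.000269), THBS3 by -1.15 in sgKDM6A against sgKMT2B (adjusted p = 0.000241) and SMOC1 by 0.96 in sgKDM5C against sgKMT2B (adjusted p = 9.28e-05).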

How the results depend on the processing

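Of 156 called member results over the 6 comparisons, 131 kept their call and direction under every alternative that left no library out, and 89 also without each library. A result not tested under an alternative counted as kept there, so both counts are upper limits. Calls were lost by 1 result with DESeq2 size factors, 5 with upper-quartile factors, 4 in the DESeq2 Wald test and 5 with no filter. Of 154 tested, 8 lost the call when only the groups compared were fitted. The call was lost by 16 of 154 when counts were thinned to the smallest total, and by 0 of the 148 tested with a minimum mean of 1 CPM. Members called higher in sgKDM5C against WT numbered 3 when only the groups compared were fitted, those higher in sgKDM6A against WT 1 in the DESeq2 test, and those lower in sgKDM5C against sgKDM6A 3 with upper-quartile factors and 3 with no filter; the cause was not tested. Leaving out each library of the groups compared in turn, with the lone library of a group assumed to vary like the others, gave 2 to 5 members higher and 8 to 19 lower in sgKDM5C against WT, 0 to 2 and 19 to 28 in sgKDM6A, and 3 to 6 and 11 to 22 in sgKMT2B. It gave 2 to 4 lower in sgKDM5C against sgKDM6A, 5 to 10 higher and 4 to 7 lower in sgKDM5C against sgKMT2B, and 5 to 7 higher in sgKDM6A against sgKMT2B. Genes called over the whole table were then 1841 to 3877, 2495 to 4711 and 2372 to 4787 in sgKDM5C, sgKDM6A and sgKMT2B against WT, 1878 to 2315 in sgKDM5C against sgKDM6A, 2236 to 2583 in sgKDM5C against sgKMT2B and 2551 to 2900 in sgKDM6A against sgKMT2B. LOX in sgKDM5C against WT, not called, ran from -0.0656 to 0.214.

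Same-numbered libraries of WT and the knockouts did not deviate together (r = -0.02 to 0.01), and those of 2 knockouts did weakly (r = 0.14 to 0.28). The main fit left the numbers out, and whether they mark pairs among the knockouts was not tested. With the replicate number as a block, 19, 32 and 23 members were lower in sgKDM5C, sgKDM6A and sgKMT2B against WT, no member call was lost, FBLN1 was called higher in sgKDM5C (adjusted p = 0.0266) and EDIL3 and MMP15 lower in sgKDM6A (adjusted p = 0.0403 and 0.0349), and 4645, 5521, 5576, 4110, 4415 and 4966 genes were called in the 6 comparisons, where 3969, 4759, 4931, 3468, 3882 and 4356 were called without it.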
